A study of Mus musculus with 6 samples.

Results

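The immediate-early genes Egr1, Egr2, Egr3, Ier2, Ier3, Ier5, Myc, Klf2, Klf6 and Klf10 were followed in primary mouse keratinocytes with a knockout of Gpx4 and in controls. They were taken as every probe set whose single annotated symbol was one of these names, which gave 18 probe sets for 10 genes, out of 45037 probe sets tested and 18193 genes with a probe set of their own. Keratinocytes, the epithelial cells of the epidermis, came from newborn mice of a mixed C57BL6/FVB background and were cultured in media with 100 nM sodium selenite, a selenium source, in both groups. The Gpx4 KO group held 3 arrays, each from a pool of keratinocytes in which a Keratin-14-cre had removed Gpx4, the selenoenzyme that reduces lipid hydroperoxides in membranes. The control group held 3 arrays from pools of control littermates, and the litters A, B and C each gave 1 array of each genotype. Keratin 14 drives the cre in basal keratinocytes, so cells in a pool that neither had the cre nor descend from such cells would keep the gene. Which cells carried the Gpx4 signal that remained was not tested. The labels do not give the number of mice in a pool or the genotype of the controls beyond their name. Each array is 1 pool, and litter is a block in the main fit. Its p-values rest on how the difference between the genotypes varied between litters, and on a spread shared across probe sets.

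Immediate-early genes are transcribed soon after a cell meets a growth factor, wounding or stress, without the need for new protein. Kinases of the ERK pathway act on ETS factors that sit with the serum response factor SRF on CArG boxes in their promoters, and most of the transcripts are short-lived. The products are largely transcription factors: the EGR zinc finger proteins, the Krüppel-like factors (KLF) and Myc, while the IER proteins act in growth and survival control. In keratinocytes EGF receptor signalling is a known inducer of several of them.

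Promoters of 5 of the 10 genes were at hand in RefSeq sequences of build GRCm38.p6, and 3 are printed because they belong to the genes with the widest spread among controls (Egr2), the most probe sets (Klf6) and the largest change among the IER genes (Ier3). Each line gives the 250 bases before the start of transcription, 5′ to 3′ on the plus strand, and capitals mark a motif match. Egr2 lies at chr10:67537619-67537868, Klf6 at chr13:5861239-5861488 and Ier3 at chr17:35821463-35821712.
Egr2: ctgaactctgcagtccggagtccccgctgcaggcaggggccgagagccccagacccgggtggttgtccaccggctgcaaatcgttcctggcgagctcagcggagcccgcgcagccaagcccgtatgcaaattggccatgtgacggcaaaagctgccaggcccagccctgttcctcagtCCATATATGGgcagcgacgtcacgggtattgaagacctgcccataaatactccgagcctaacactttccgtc
Klf6: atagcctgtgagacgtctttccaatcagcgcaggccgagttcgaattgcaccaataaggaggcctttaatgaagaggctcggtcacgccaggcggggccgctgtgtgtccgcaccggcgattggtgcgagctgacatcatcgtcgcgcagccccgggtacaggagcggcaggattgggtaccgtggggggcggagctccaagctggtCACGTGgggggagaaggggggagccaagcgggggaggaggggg
Ier3: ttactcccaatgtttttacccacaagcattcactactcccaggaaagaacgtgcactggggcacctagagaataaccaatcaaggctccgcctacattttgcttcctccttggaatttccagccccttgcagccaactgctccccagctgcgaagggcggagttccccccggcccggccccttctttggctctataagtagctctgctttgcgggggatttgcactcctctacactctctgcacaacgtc
Searched on both strands were 6 motifs: the CArG box, the cyclic AMP response element TGACGTCA, the E-box CACGTG that Myc with Max binds, the EGR site GCGNGGGCG, TATAAA and the ETS site CCGGAA. The capitals of Egr2 are a CArG box at positions -72 to -63, counted back from the base before the start, and 1.47% of the 32851 windows of the same length in the table hold one. Of the 5 listed Egr2 starts, 3 have windows that overlap and share this box, and 1 further upstream has another. In Klf6 the capitals are an E-box at -43 to -38, which 6.02% of all windows hold. The window of Ier3 had none of these letters, nor had that of Ier5, and that of Klf2 held an EGR site at -199 to -191, found in 4.7% of all windows. A match is a description of the letters and not a binding site.

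Intensities below are quantile-normalized between arrays, and log2 changes are Gpx4 KO minus control on log2(intensity + 16), each with its SE, from a limma fit in which litter was a block. Adding 16 understates the change of dim probe sets. The median probe set had an intensity of 17.5 after normalization. As deposited, the mean intensity trimmed of 2% at each end was 73.5 to 92 in the Gpx4 KO arrays and 72.8 to 114.3 in the control arrays, the highest being the control of litter C. Gpx4 itself fell, with 212, 259.7 and 216.1 in the Gpx4 KO arrays (here and below in the order A, B, C of the litters), against 496.9, 550.9 and 535.7 in the control arrays (log2 change -1.15 ± 0.09, limma adjusted p = 0.0206). It did not pass on the deposited scaling (0.122), without an intensity trend in limma (0.1), without litter A (0.162) or without litter B (0.278). A dimmer Gpx4 probe set had 107.1, 184.5 and 116.8 in the Gpx4 KO, against 336.8, 324.5 and 486.4 in the control. Its log2 change of -1.40 ± 0.21 did not pass (limma adjusted p = 0.063). The Y-linked gene Eif2s3y had intensities of 3.18, 0.667 and 4.62 in the Gpx4 KO pools, against 155.5, 178.4 and 185.3 in the control pools, so the pools also differed in a sex-linked transcript. As this held in every litter, the part of sex cannot be told apart from that of genotype. It was not tested in the results below.

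In litters A and B, 7 of the 10 genes were higher in the Gpx4 KO by 0.34 or more on the log2 scale. The smallest of these differences, 0.34, was that of Ier5 in litter B, and the share of all probe sets with such differences was not counted. Egr2 was higher by 0.42 and 0.24, and Klf10 and Egr3 were lower in both litters. In litter C the difference of the 7 genes and of Klf10 was smaller in size, between -0.12 and 0.40. The control array of litter C stood above the other control arrays in 6 of the 7 and below them in Klf10. Over all 3 litters no gene of the 10 passed an adjusted p of 0.05 in limma in either direction, while 7 were higher and 1 was lower at an unadjusted p under 0.05. In the same fit 0.158% of all probe sets passed as higher and 0.262% as lower, and an unadjusted p under 0.05 was reached by 7.06% as higher and by 7.58% as lower. The median log2 change of the 10 genes was 0.51, against 0.00 over all probe sets. By litter it was 0.77 in A, 0.81 in B and -0.07 in C.

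**Figure D1:**
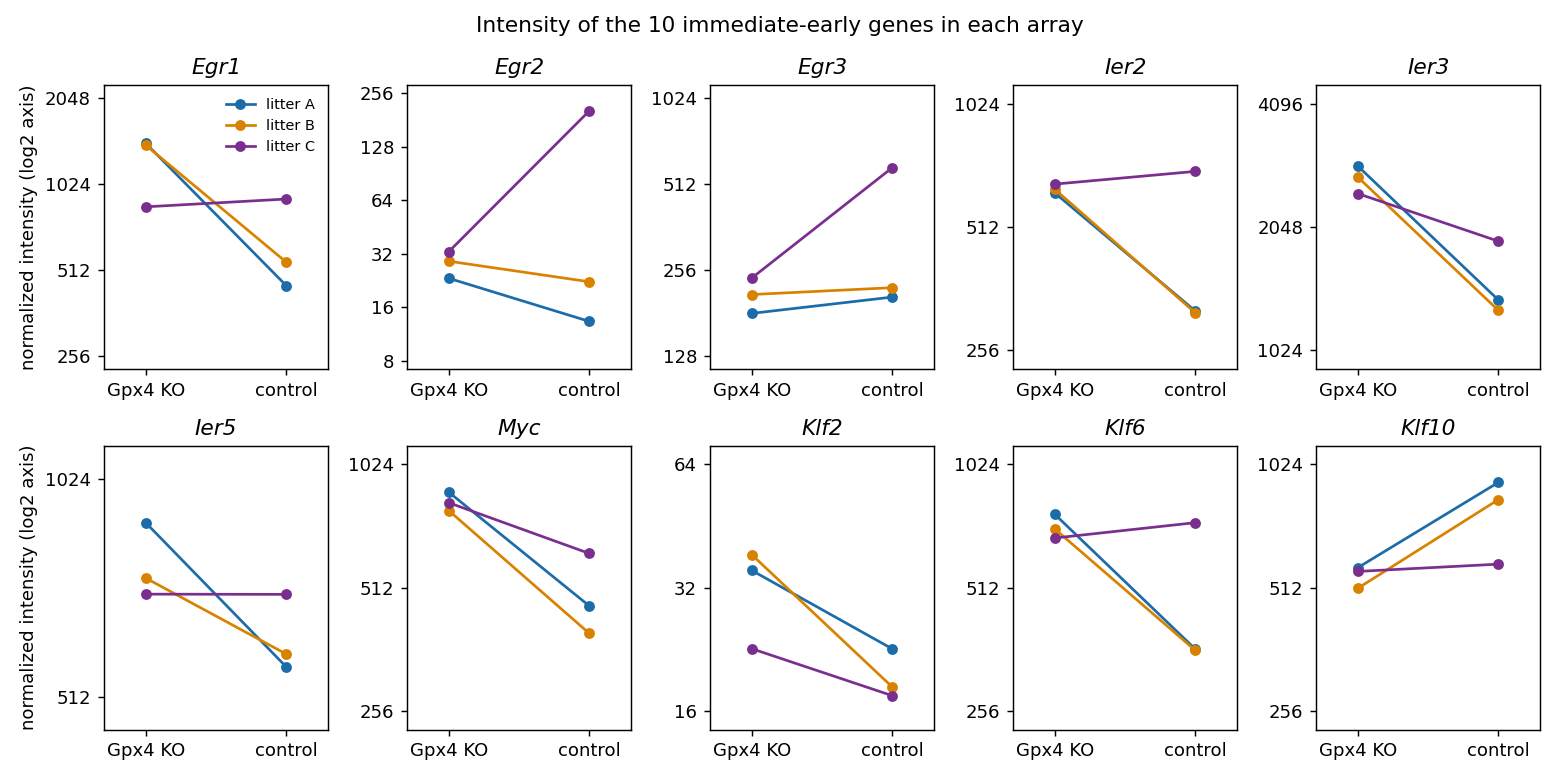
Quantile-normalized intensity (log2 axis) of the brightest probe set of each of the 10 genes in every array, with Gpx4 KO on the left and control on the right. Points are arrays and lines join the arrays of 1 litter. In Egr1, Ier2 and Klf6 the lines of litters A and B run together while that of litter C is nearly level, with its control point high. In Egr1 the Gpx4 KO point of litter C is also low.

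Egr1, the zinc finger factor that is the best known early growth response gene, had intensities of 1420, 1399 and 851.5 in the Gpx4 KO arrays, against 450.9, 544.8 and 906.8 in the control arrays. The Gpx4 KO arrays of litters A and B were the highest of the 6, and the groups overlapped because in litter C the control was above the Gpx4 KO. The log2 change was 0.96 ± 0.30 and did not pass (limma adjusted p = 0.23). The differences within litters were 1.62, 1.33 and -0.09.

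Egr2, a relative known from peripheral nerve myelination, was dim in 5 arrays and bright in 1. It had 23.3, 29.0 and 32.9 in the Gpx4 KO arrays, against 13.3, 22.3 and 203.4 in the control arrays. Its high array was the control of litter C, 2.71 above the mean of the other controls on the log2 scale, and this array set the sign of the change (-0.50 ± 0.49, limma adjusted p = 0.697). Without litter C the log2 change was 0.32 ± 0.20 (adjusted p = 0.44). A dimmer Egr2 probe set had the same high array, with 13.8, 27.8 and 33.8 in the Gpx4 KO, against 10.3, 15.3 and 141.4 in the control (log2 change -0.33 ± 0.40). The promoter with the CArG box printed above belongs to this gene.

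Egr3, which in lymphocytes acts beside Egr2 as a brake on activation, had 180.3, 209.9 and 239.9 in the Gpx4 KO arrays, against 205.6, 221.8 and 584.1 in the control arrays. Again 5 arrays lay close together and the control of litter C was high. The log2 change was -0.49 ± 0.23 (limma adjusted p = 0.382), and without litter C it was -0.12 ± 0.10 (adjusted p = 0.557). A second Egr3 probe set was dim and had no high array, with 6.92 to 15.6 in the Gpx4 KO and 18.4 to 22.6 in the control (-0.36 ± 0.17). The EGR genes differed among themselves: Egr1 was higher in the Gpx4 KO of litters A and B by more than 1 on the log2 scale, and Egr3 differed there by -0.18 and -0.07.

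Of the IER genes, Ier3 had the largest log2 change. Ier3, also known as IEX-1, encodes a regulator of apoptosis and survival signalling and had 2882, 2709 and 2470 in the Gpx4 KO arrays, against 1358, 1281 and 1890 in the control arrays. All Gpx4 KO arrays lay above all control arrays. The log2 change was 0.84 ± 0.15 (limma adjusted p = 0.0796), and within litters the differences were 1.08, 1.07 and 0.38. It passed when the 40% dimmest probe sets were left out (adjusted p = 0.02) or 1 was added in place of 16 (0.0438). It did not pass with 64 added (0.0982), without a trend (0.162) or on the deposited scaling (0.507).

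Ier2, a nuclear protein of the early response to growth factors, had 619.5, 632.4 and 651.4 in the Gpx4 KO arrays, against 319, 315.8 and 699.7 in the control arrays. The Gpx4 KO arrays were nearly equal, and the control of litter C was above all of them. Its log2 change of 0.60 ± 0.21 did not pass (limma adjusted p = 0.273). Within litters the differences were 0.92, 0.97 and -0.10.

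Ier5, a regulator of the heat shock factor HSF1, had 890.1, 746.4 and 709.3 in the Gpx4 KO arrays, against 562.6, 586.1 and 708.8 in the control arrays on its brightest probe set. The groups did not overlap, yet the arrays of litter C were almost equal, and the log2 change was 0.33 ± 0.13 (limma adjusted p = 0.317). Its other probe sets went the other way, at -0.13 ± 0.17 and -0.40 ± 0.13, and the mean of all 3 gave -0.07, so the direction of Ier5 depends on the probe set.

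Myc, the growth-promoting factor that pairs with Max, had 875.6, 789.5 and 825.4 in the Gpx4 KO arrays, against 462, 395.9 and 620.6 in the control arrays. No control reached the lowest Gpx4 KO array. The log2 change was 0.76 ± 0.13 (limma adjusted p = 0.0757), from differences of 0.90, 0.97 and 0.40 within litters. Like Ier3 it passed without the 40% dimmest probe sets (adjusted p = 0.0226) or with 1 added (0.041). Also like Ier3, it did not pass with 64 added (0.0948), without a trend (0.154) or on the deposited scaling (0.577).

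**Figure D2:**
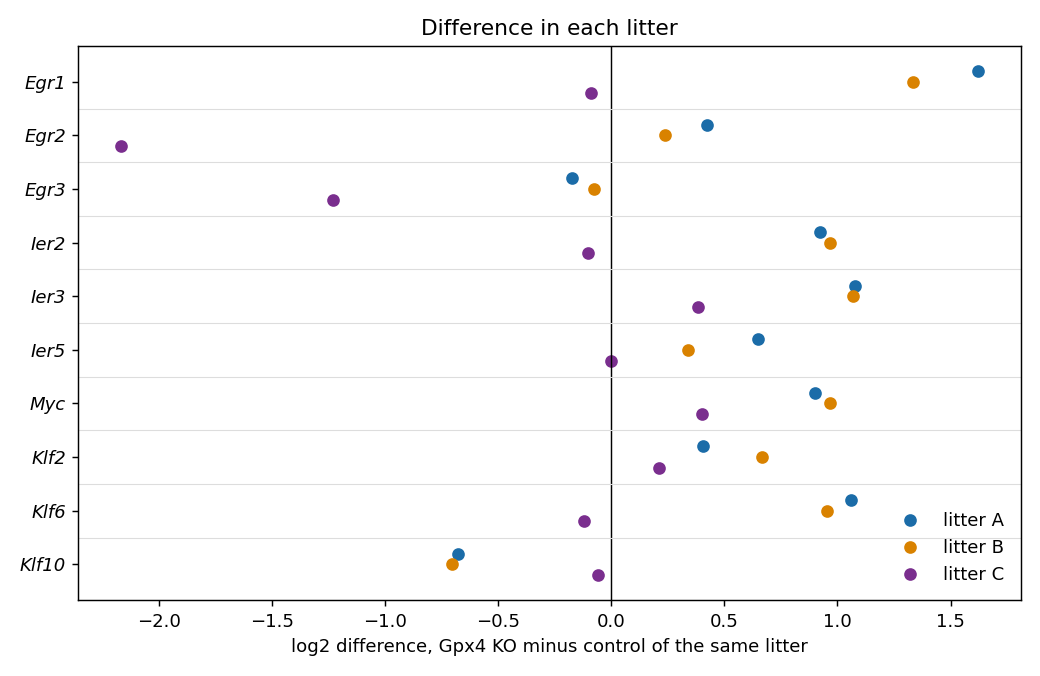
Log2 difference between the Gpx4 KO and the control array of each litter, for the brightest probe set of each of the 10 genes. Points are litters, and the vertical line is no difference. Points of litters A and B lie near each other, from 0.90 to 1.08 for Ier2, Ier3, Myc and Klf6, while the point of litter C is to their left in 9 genes and to the right in Klf10.

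Among the Krüppel-like factors, Klf6, which is induced by injury in several tissues, was measured by 5 probe sets. On the brightest it had 773.1, 712 and 677 in the Gpx4 KO arrays, against 362.4, 359.8 and 738 in the control arrays. The Gpx4 KO arrays were alike and the control of litter C lay among them, whereas for Ier2 it lay above them. The log2 change was 0.63 ± 0.23 (limma adjusted p = 0.277), and the other 4 probe sets gave 0.49 to 0.88, all with adjusted p above 0.05. In the difference within litters, all 5 probe sets lay between 0.72 and 1.20 in litters A and B and between -0.45 and 0.38 in litter C.

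Klf10, a TGF-beta-inducible repressor first described as TIEG, was lower in the Gpx4 KO of every litter, as was Egr3. It had 573.2, 510.4 and 561 in the Gpx4 KO arrays, against 925.6, 840.2 and 584.4 in the control arrays. Every Gpx4 KO array was below every control array, and here the control of litter C was the lowest control. The log2 change of -0.48 ± 0.14 did not pass (limma adjusted p = 0.202), and its differences within litters were -0.68, -0.70 and -0.06.

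Klf2, best known as a flow-induced factor of endothelium, was dim. It had 35.3, 38.5 and 22.7 in the Gpx4 KO arrays, against 22.7, 18.3 and 17.4 in the control arrays. The lowest Gpx4 KO array was only just above the highest control array, and the log2 change was 0.43 ± 0.17 (limma adjusted p = 0.324). Klf2 was the 1 gene of those higher in the Gpx4 KO in which the control of litter C was not the highest control.

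Counted over the 10 genes, the groups did not overlap in 4 that were higher in the Gpx4 KO (Ier3, Ier5, Myc and Klf2) and in 1 that was lower (Klf10). Over all probe sets this was so in 8.79% as higher and 9.43% as lower. The sign was the same in all 3 litters in 4 genes as higher, in the case of Ier5 by a difference of 0.001 in litter C, and in 2 as lower, beside 18.1% and 18.3% of all probe sets.

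The control array of litter C was the highest control in 8 of the 10 genes, against 36.3% of all probe sets. Its gap above the mean of the other controls was more than 1 on the log2 scale in 3 genes (Egr2, Egr3 and Ier2). This was so in 0.866% of all probe sets, and Klf6 was at 1.00. Such a gap was also found in 4 of 7 fibroblast markers, described below. It was found in 5 of 27 other immediate-early genes, 1 of 11 EGR target genes and 0 genes of the other lists. The median of this gap over the 10 genes was 0.69, whereas the Gpx4 KO array of litter C differed from the other Gpx4 KO arrays by a median of -0.07. For Egr1 that difference was -0.72, beside a gap of 0.85 in the control. Centred on each gene's mean and averaged over the 10 genes, the levels were 0.20, 0.18 and 0.08 in the Gpx4 KO arrays, against -0.42, -0.40 and 0.36 in the control arrays.

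With the 4 arrays of litters A and B, which leave 1 residual degree of freedom beside the spread limma shares across probe sets, 6 of the 10 genes passed as higher and 1 as lower, beside 2.9% and 3.02% of all probe sets. Egr1 then had a log2 change of 1.49 ± 0.09 (limma adjusted p = 0.000715). The changes of Ier3, Klf6, Ier2 and Myc lay between 0.93 and 1.09, with limma adjusted p between 0.00088 and 0.00231, and Ier5 changed by 0.49 (0.0347). The other Ier5 probe sets were at 0.08 and -0.32 and did not pass (limma adjusted p = 0.82 and 0.269). Klf10 fell by 0.69 on the log2 scale (0.0057). Egr2, Egr3 and Klf2 did not pass (0.44, 0.557 and 0.2). With only the control of litter C left out, and no block, Egr1, Ier2, Ier3, Myc and Klf6 passed as higher and Klf10 as lower, beside 2.51% and 2.85% of all probe sets. Without litter A or without litter B none of the 10 passed (limma, 2 as higher at an unadjusted p under 0.05 without either, and 0 and 1 as lower), and among all probe sets 3 passed without A and 0 without B (1821 higher and 1874 lower at an unadjusted p under 0.05 there). As deposited, without normalization between arrays, none of the 10 passed in limma (1 higher and 1 lower at an unadjusted p under 0.05), and each kept its sign.

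**Figure D3:**
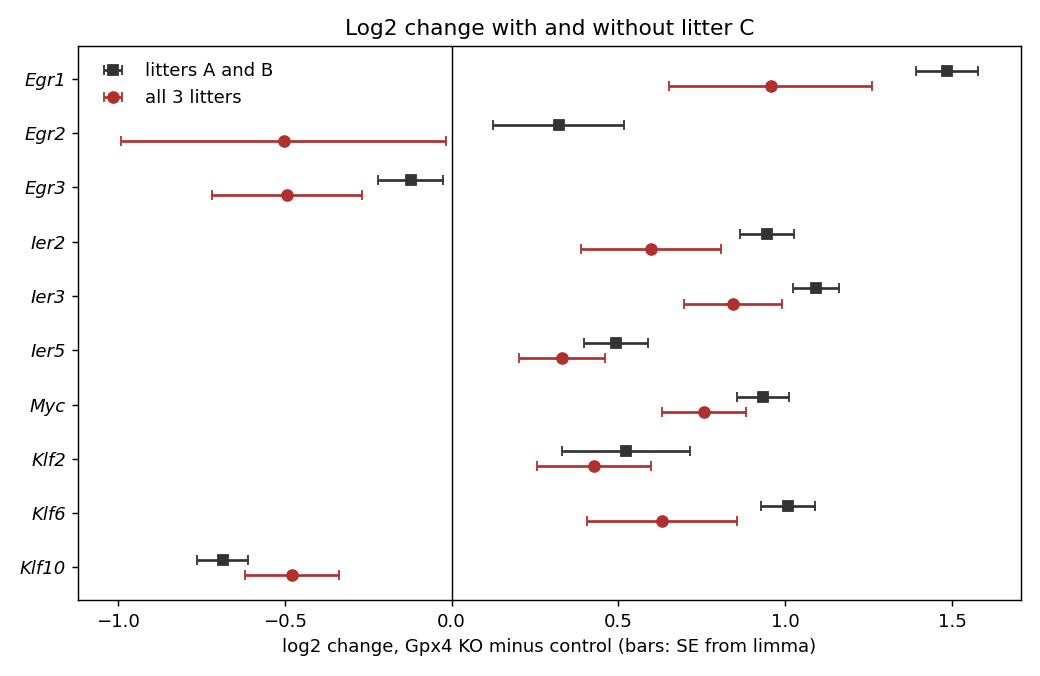
Log2 change, Gpx4 KO minus control, from limma with litter as a block, for litters A and B alone (squares) and for all 3 litters (circles). Bars are the SE. The SE of Egr1 is 0.09 without litter C and 0.30 with it, and Egr2 is on opposite sides of 0.

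Markers of other cells were set beside these values. The summed intensity of 7 fibroblast markers was 1269, 1236 and 1536 in the Gpx4 KO arrays, against 369.6, 350.9 and 1060 in the control arrays. It was thus high in the control of litter C, as the immediate-early genes were, and low in the other controls. Most of the sum was Vim, which cultured keratinocytes can also express, with 947.5, 836.1 and 1038 in the Gpx4 KO arrays, against 225.1, 196.3 and 615.6 in the control arrays. Vim (log2 change 1.58 ± 0.25, limma adjusted p = 0.0682), Col1a1 (1.12 ± 0.20, 0.0831), Col1a2 (0.83 ± 0.21) and Pdgfra (0.71 ± 0.23) were higher in the Gpx4 KO of every litter, and over all 3 litters none of the 7 passed. Without litter C, where 6 of the immediate-early genes passed as higher, these 4 passed as higher too (Vim 2.00, limma adjusted p = 0.000302; the others 0.00706 to 0.0365), beside 2.9% of all probe sets. The other markers did not keep 1 direction: Col3a1 was at 0.23, 1.10 and -0.50 in the litters, Dcn at 0.38, -0.33 and -0.22, and Lum was at 14 or less in all arrays. In bulk RNA, more cells of a type and more RNA per cell cannot be told apart, and the part of fibroblasts in the immediate-early values was not tested.

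All 6 melanocyte markers were higher in every Gpx4 KO array than in any control array, beside 8.79% of all probe sets. Of them 2 rose, beside 0.158% of all probe sets: Mlana (1.11 ± 0.14, limma adjusted p = 0.0429) and Tyrp1 (0.69 ± 0.08, 0.038). Neither passed on the deposited scaling (0.209 and 0.539), without litter A (0.18 and 0.234) or without litter B (0.416 and 0.444), with 64 added (0.0617 and 0.0529) or without a trend (0.118 and 0.121). Without litter C 4 of the 6 passed as higher, beside 2.9% of all probe sets. Their sum was 5976 to 6571 in the Gpx4 KO and 4242 to 4405 in the control, with no high control array. The 6 endothelial markers summed to 35.4 to 45.2 in the Gpx4 KO and 29.5 to 40.7 in the control, which is near the lower end of the scale for every marker, and the 6 leukocyte markers to 106.5 to 142.7 and 99.2 to 117. Keratinocyte markers were bright in all arrays, with Krt5 at 6596 to 6849 in the Gpx4 KO and 6596 to 7049 in the control, and none of the 8 passed over all litters. Trp63, the factor p63 of basal keratinocytes, had the smallest p of them, with 914.1, 785.2 and 766.5 in the Gpx4 KO arrays, against 1257, 1104 and 991.2 in the control arrays (-0.43 ± 0.08, limma adjusted p = 0.0816). Its groups did not overlap, and without litter C it passed as lower (0.0159).

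The other genes of the pathway were described by fixed lists. Of 14 measured upstream factors none passed (median log2 change -0.17). Srf, the factor that binds CArG boxes, had 192.9, 206 and 203.2 in the Gpx4 KO arrays, against 275.9, 271 and 247.4 in the control arrays (-0.37 ± 0.10, limma adjusted p = 0.167). Creb1 (-0.34 ± 0.10), the ETS factor Elk4 (-0.28 ± 0.09) and the kinase Rps6ka3 (-0.25 ± 0.09) were also lower without passing. In this list the control of litter C was the highest control in 3 of 14. It was the highest control in 15 of 18 Myc target genes, 6 of 7 fibroblast markers and 7 of 11 EGR target genes. The same held for 16 of 27 other immediate-early genes, 7 of 13 other KLF factors and 6 of 12 Myc network genes. For EGR and IER relatives and co-repressors it was 2 of 5. It held for 0 of 8 keratinocyte, 1 of 6 endothelial, 2 of 6 melanocyte and 2 of 6 leukocyte markers. A high control of litter C was thus not particular to the genes followed here.

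Of 5 EGR and IER relatives and co-repressors none passed (median -0.11). Nab2, a co-repressor that EGR proteins induce and are held back by, had 73.8, 85.2 and 68.8 in the Gpx4 KO arrays, against 114.9, 107.8 and 93.4 in the control arrays (-0.40 ± 0.12, limma adjusted p = 0.214). Its direction was thus opposite to that of Egr1 in litters A and B. The related co-repressor Nab1 (0.11 ± 0.09), Ier3ip1 (0.16 ± 0.09) and the dim Egr4 (-0.26 ± 0.20) did not pass. None of 13 other KLF factors passed either (median -0.13). Klf16 had the smallest p of them (0.55 ± 0.15, limma adjusted p = 0.173), followed by Klf12 (-0.49 ± 0.15), Klf1 (-0.31 ± 0.15) and Klf7 (-0.15 ± 0.09).

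Genes that EGR proteins are known to regulate were measured by 11 members (median 0.07). Of these 1 rose and none fell, beside 0.158% and 0.262% of all probe sets. F3, the tissue factor that starts blood clotting, had 2004, 1904 and 1666 in the Gpx4 KO arrays, against 609.6, 540.7 and 908.5 in the control arrays. The groups were far apart, with the control of litter C again the highest control, and the log2 change was 1.45 ± 0.18 (limma adjusted p = 0.0439). It did not pass on the deposited scaling (1.28, 0.228), nor without litter A (0.249) or litter B (0.414). Nor did it pass with 64 added (0.0616) or without a trend (0.118). The urokinase receptor Plaur (2.00 ± 0.29, limma adjusted p = 0.0607), fibronectin Fn1 (-0.61 ± 0.09, 0.0552) and the growth factor Pdgfb (-0.82 ± 0.15, 0.0881) did not pass. Without litter C 4 of the 11 passed as higher and 3 as lower, beside 2.9% and 3.02% of all probe sets.

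None of 18 Myc target genes passed over all 3 litters, but 11 were higher in the Gpx4 KO of every litter and 1 was lower, beside 18.1% and 18.3% of all probe sets, and their median was 0.38. Nop56, a protein of the ribosome-building small nucleolar particles, had 982.7, 1024 and 1023 in the Gpx4 KO arrays, against 592.4, 614.2 and 724.2 in the control arrays (0.64 ± 0.09, limma adjusted p = 0.0505). Odc1, the first enzyme of polyamine synthesis, had a log2 change of 1.04 ± 0.18 (0.0783), Srm, the spermidine synthase, one of 0.68 ± 0.13 (0.0865) and the transferrin receptor Tfrc one of 0.79 ± 0.11 (0.0514). Unlike the other 3, Odc1 was lowest in the control of litter C, at 412, against 1350 and 1203 in the other controls. Without litter C 11 of the 18 passed as higher and none as lower, beside 2.9% and 3.02% of all probe sets, with a median of 0.48.

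Of 12 genes of the Myc network none passed (median 0.02). Mxd4, which pairs with Max in Myc's place and represses, had 126.4, 99.8 and 86.5 in the Gpx4 KO arrays, against 296.7, 293.8 and 107.6 in the control arrays. The control of litter C lay near the Gpx4 KO arrays, and the other controls stood above. The log2 change was -0.94 ± 0.22 (limma adjusted p = 0.135), and -1.27 without litter C, where it passed (0.0026). Mycl (-0.72 ± 0.28), Mxi1 (0.29 ± 0.12) and Mxd1 (-0.45 ± 0.20) did not pass.

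Among 27 other immediate-early genes outside AP-1 and the DUSP phosphatases, 1 fell and none rose, beside 0.262% and 0.158% of all probe sets. The median was -0.05. Sgk1, a kinase that glucocorticoids and serum induce, had 1591, 1266 and 1063 in the Gpx4 KO arrays, against 2827, 2630 and 2788 in the control arrays (-1.08 ± 0.11, limma adjusted p = 0.0343). No control array stood apart for Sgk1. It did not pass on the deposited scaling (-1.23, 0.172), without litter A (0.135) or B (0.402), or without a trend (0.114). Nfil3 (-0.95 ± 0.13, limma adjusted p = 0.0516), the survival factor Mcl1 (0.41 ± 0.07, 0.0822) and Tiparp (0.50 ± 0.11, 0.126) did not pass. Without litter C 8 of the 27 passed as higher and 4 as lower (median 0.23), beside the same 2.9% and 3.02% of all probe sets.

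**Figure D4:**
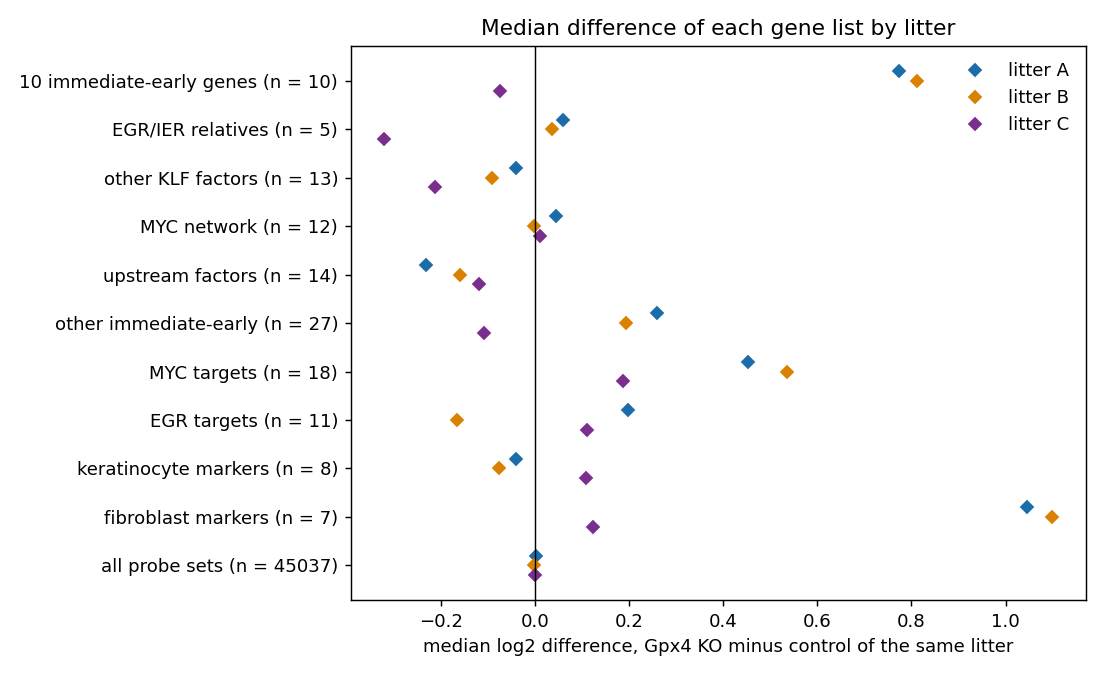
Median log2 difference, Gpx4 KO minus control of the same litter, for the 10 immediate-early genes and the other gene lists, with the number of genes or probe sets in each. Diamonds are litters. In the order A, B, C the 10 genes are at 0.77, 0.81 and -0.07, the fibroblast markers at 1.05, 1.10 and 0.12, and the median of all probe sets is 0.00 in each.

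The genes whose levels over the 6 arrays were most like the average of the 10 genes were Hnrnpf (Pearson r = 0.995), Pmaip1 (0.995), Atf3 (0.994), Nufip1 (0.993) and Nup54 (0.992), as a description over 6 arrays that share litters. Atf3, a stress-induced factor, had 118.5, 108.8 and 106.8 in the Gpx4 KO arrays, against 53.4, 60.1 and 146.9 in the control arrays. Pmaip1, which encodes the pro-apoptotic protein Noxa, had 1157, 1171 and 1111 in the Gpx4 KO arrays, against 741.1, 786 and 1383 in the control arrays. In both genes the control of litter C was the highest array and the other controls were the lowest. The average of the 10 genes has this same order, and both genes were picked by their likeness to it. Of the 10 genes, Ier2 (0.976) and Klf6 (0.975) were most like their own average, and Klf10 (-0.917) was its opposite. Each gene is part of that average, so these correlations are not independent of it.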

How the data were processed

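Messenger RNA was measured with 1-colour biotin-labelled arrays on Trizol-extracted total RNA. The authors deposited 1 linear intensity per probe set and array, from 0 to 9550.8. Background correction, summarisation and scaling are not given in the sources used here. After 64 control probe sets were left out, 45037 probe sets were quantile-normalized, 16 was added, and log2 values were fitted with limma 3.58.1 (R 4.3.3), with an intensity trend, litter as a block and two-sided Benjamini-Hochberg adjusted p (threshold 0.05). The deposited design text pairs the pools by litter, and the residuals of same-litter arrays had correlations of 0.277 (A), 0.088 (B) and 0.308 (C). The fit was also run on simulated data with independent noise and no litter effect. That checks the code only and not the fit on these arrays. Symbols came from the 2016 platform annotation, updated through RefSeq gene IDs: 34945 probe sets had 1 gene, 932 several and 9160 none listed. A gene is given by its brightest probe set. Of the pathway lists, genes that passed and the 4 with the smallest p are named, and the 5 genes most like the members' average; markers are given as sums, with those that passed, and others chosen after their values were seen. Of 105 list genes 5 were not matched. Members and lists were chosen with earlier results of these data known. Alternatives covered scaling, the pseudocount, dim probe sets, the block, the trend, probe sets and left-out arrays.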

Additional observations from a re-analysis of the deposited data

How the results depend on the processing

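Over all probe sets 71 passed as higher and 118 as lower. The counts were 3 and 32 as deposited, 1268 and 1134 after a shift of the arrays to 1 median, 271 and 330 with a pseudocount of 1, 27 and 32 with 64, and 521 and 609 without the 40% dimmest probe sets. Without an intensity trend they were 0 and 6 (limma, 3194 and 3461 at an unadjusted p under 0.05). Without the litter block they were 60 and 75, and no call among the 10 genes changed. Leaving out 1 litter or 1 array, they ran from 0 to 1306 and from 0 to 1360. Of the 10 genes, none passed in limma over all litters. With a pseudocount of 1 or without the dimmest probe sets 2 passed as higher (Ier3 and Myc). With the median shift 5 passed as higher and 2 as lower. That shift moved the median of all probe sets to 0.124, against 0.002, and the prior degrees of freedom of limma were 48, against 4.42 with quantile normalization. With the dimmest probe sets also left out, a combination chosen after seeing the data, they were 7.2, and 2 of the 10 passed as higher and 0 as lower, beside 524 and 527 of all probe sets. Leaving out 1 litter or 1 array, 0 to 6 of the 10 passed as higher and 0 to 1 as lower. The median log2 change of the 10 lay between 0.37 and 0.73 under every alternative run. Egr2 reversed to 0.32 without litter C and to 0.38 without its control, and lay between -1.06 and 0.38 over all left-out litters or arrays. Ier5 reversed to -0.066 with the mean of its probe sets. The other 8 genes kept their direction under every alternative run. No detection calls were used, so dim values such as those of Klf2 have no stated background.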

Other observations

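Plk2 and Plk3, polo-like kinases of the immediate-early class, were singled out after their values were seen. Plk2 had intensities of 1065, 982.7 and 1070 in the Gpx4 KO arrays (litters in the order A, B, C), against 370.2, 321.1 and 1078 in the control arrays (log2 change 1.01 ± 0.30, limma adjusted p = 0.2). Its Gpx4 KO arrays were nearly equal and the control of litter C was just above them. Plk3 had 155.8, 237.6 and 320.3 in the Gpx4 KO arrays, against 61.4, 45.6 and 254 in the control arrays (1.17 ± 0.30, limma adjusted p = 0.155). Id2, an inhibitor of helix-loop-helix factors, ran the other way, with 1263, 1123 and 1156 in the Gpx4 KO arrays, against 1824, 1638 and 801.4 in the control arrays (-0.18 ± 0.21, limma adjusted p = 0.751), and it too was chosen after its values were seen.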
